A study of Mus musculus with 12 samples.

Results

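Chemokines are small secreted proteins that guide leukocytes along concentration gradients, and their receptors are G protein-coupled receptors on the cells that respond. The genes described here are those whose symbol starts with Ccl, Cxcl, Cx3cl, Xcl, Ccr, Cxcr, Cx3cr or Xcr followed by a number, with at most 1 letter after it, in a table of liver gene expression. The rule found 63 of the 54532 genes in the table, 45 of them ligand genes and 18 receptor genes. They carried 57 distinct symbols, since some ligand genes have copies on unplaced scaffolds of the mouse genome, which held 7 of the 63. Chemokine genes named by other conventions, such as Pf4 and the atypical receptors, fall outside the rule and are described as a separate list.

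The livers came from male C57BL/6J mice that were 5 weeks old when the diets began and stayed on them for 26 weeks. There were 4 groups of 3 mice each. ND-fed mice received the normal diet CE-2, and control mice received the high-fat diet HFD32. HYA-treated mice received the same high-fat diet with 1% HYA (10-hydroxy-cis-12-octadecenoic acid), a hydroxy fatty acid that gut bacteria make from linoleic acid. LA-treated mice received the high-fat diet with 1% linoleic acid (LA) itself, the parent compound, which keeps the double bond that is hydrated in HYA. The high-fat diet was therefore shared by the control, HYA and LA groups, and control differed from ND in the whole diet. Cage and litter are not given in the sources used here, so p-values measure the spread between these mice only.

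In the liver, Kupffer cells are the resident macrophages, and during overnutrition monocytes enter from the blood. CCL2 and CCL7 recruit CCR2-bearing monocytes, the CCL3, CCL4 and CCL5 ligands act on receptors that include CCR1, and CXCL9 and CXCL10 attract CXCR3-bearing T cells and natural killer cells. CXCL1 and CXCL2 attract neutrophils, CXCL13 attracts CXCR5-bearing B cells, and CX3CL1 is a membrane-anchored ligand for CX3CR1 on monocytes and macrophages. CXCL12 acts on CXCR4 and is made constitutively by stromal and endothelial cells.

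Values are FPKM, fragments scaled to the length of the gene and the depth of the library, so levels of different genes can be compared per unit of length. Whole fragments behind each value were recovered from the steps in the table, and 17169064 to 25220880 fragments per mouse lay on genes. All 9 hepatocyte markers examined passed the filter of 1 FPKM, so the liver label was matched. Correlations between mice of a group were 0.983 to 0.990 across genes, no 2 columns were identical, and no library was left out. Of the immune cell lists, 7 of 7 Kupffer cell markers, 8 of 11 monocyte and macrophage markers, 2 of 10 neutrophil markers, 1 of 7 B cell markers, 1 of 6 dendritic cell markers, 0 of 10 T cell markers and 0 of 7 natural killer cell markers averaged 1 FPKM or more.

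The 63 genes were sparsely expressed. Averaged over all 12 mice, 16 genes reached 1 FPKM. A further 13 genes had a lower mean but at least 10 fragments on average. On average 28 genes had fewer than 10 fragments, and 6 ligand genes had 0 fragments in every mouse. With a floor of 3 fragments per mouse, 21 genes were above it in all 12 mice, 44 in at least 1 mouse, and 19 were at or under it in every mouse. A count of 0 allows up to 3 fragments, which covers counting error only and corresponds to 0.0118 to 0.67 FPKM, depending on the length of the gene and the depth of the library. For the 34 genes with 0 or fewer than 10 fragments, a difference between groups was not tested. Here and below, that refers to the main limma fit and the voom fit. Counts under settings with a lower filter or none, given in the closing section, can include some of these genes.

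**Figure D1:**
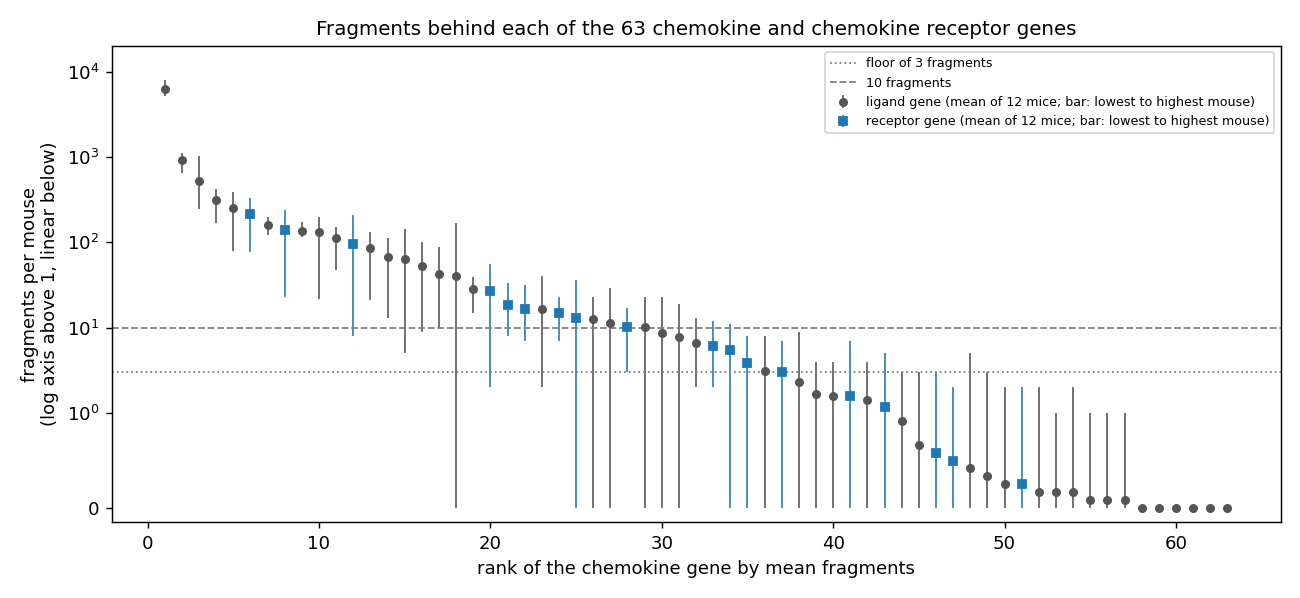
Fragments behind each of the 63 chemokine ligand (circles) and receptor (squares) genes, as the mean of 12 mice with a bar from the lowest to the highest mouse, ordered by the mean, on an axis that is logarithmic above 1 and linear below. The most abundant gene, Cxcl12, averaged 6234 fragments, 29 genes averaged at least 10, and the 6 at the right end had 0 in every mouse.

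Promoters are shown for 4 genes that the results below turn on: Cxcl10 and Cxcl2, which were higher on the high-fat diet, Cxcl13, which was lower, and Cx3cl1, which differed between HYA-treated and control mice. RefSeq windows (GRCm38.p6, 250 bases before to 50 after the start site) were at hand for 41 of the 63 genes. The letters searched were GGGNNNTTCC, the core recognised by NF-kappaB, and GAAANNGAAA, the core of the interferon-stimulated response element, each on both strands, and TATAAA on the sense strand. Of all 32851 promoters of this length, 5.56%, 3.44% and 8.32% held these letters, against 8 (19.5%), 3 (7.32%) and 9 (22%) of the 41 chemokine promoters. The 250 bases before the start site follow, 5′ to 3′ on the strand of the gene, with every match in capitals.
Cxcl10, chr5:92348890-92349139, minus strand: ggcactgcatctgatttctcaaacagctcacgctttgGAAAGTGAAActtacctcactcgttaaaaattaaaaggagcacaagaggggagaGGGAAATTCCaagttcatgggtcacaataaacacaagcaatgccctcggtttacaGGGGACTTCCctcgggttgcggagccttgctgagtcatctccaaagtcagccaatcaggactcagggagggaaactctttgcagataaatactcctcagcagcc
Cxcl2, chr5:90903649-90903898, plus strand: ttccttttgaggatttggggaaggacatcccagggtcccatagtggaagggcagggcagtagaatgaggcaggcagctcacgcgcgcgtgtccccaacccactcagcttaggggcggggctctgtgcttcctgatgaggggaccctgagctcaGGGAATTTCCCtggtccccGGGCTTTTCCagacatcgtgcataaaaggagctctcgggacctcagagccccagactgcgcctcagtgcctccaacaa
Cxcl13, chr5:95956689-95956938, plus strand: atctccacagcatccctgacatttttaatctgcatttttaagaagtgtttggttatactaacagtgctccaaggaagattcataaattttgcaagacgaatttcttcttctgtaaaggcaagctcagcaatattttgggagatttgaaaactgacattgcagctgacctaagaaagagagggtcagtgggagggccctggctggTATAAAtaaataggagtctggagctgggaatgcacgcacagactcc
Cx3cl1, chr8:94771930-94772179, plus strand: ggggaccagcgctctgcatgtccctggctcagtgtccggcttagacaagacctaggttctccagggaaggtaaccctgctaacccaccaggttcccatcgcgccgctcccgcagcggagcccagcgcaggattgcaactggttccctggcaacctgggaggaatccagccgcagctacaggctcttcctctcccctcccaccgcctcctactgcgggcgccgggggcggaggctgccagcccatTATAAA

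In Cxcl10 the capitals mark the interferon core 213 bases before the start and NF-kappaB cores 159 and 104 bases before it. In Cxcl2 a palindromic match read on both strands lies 97 and 96 bases before the start, its copies overlapping, and another lies 78 bases before it. In Cxcl13 and Cx3cl1 the only match was TATAAA, 46 and 6 bases before the start. The RefSeq start of Cx3cl1 lies 171 bases downstream of the 5′ end listed with the expression values. Most of its printed window, with the TATAAA, is therefore inside the gene as listed. For Cxcl2 that distance was 28 bases. A match is a description of the letters in the window and does not show binding.

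Control mice were compared with ND-fed mice for the effect of the high-fat diet. Ligand genes that rose included Ccl2, Ccl6, Cxcl10, Cxcl14 and Cxcl16 by limma, the receptor genes Ccr2 and Cx3cr1 rose by voom, and the ligand genes Cxcl12 and Cxcl13 fell. Ccl5, Ccl9, Cxcl1, Cxcl9 and Cxcl11 did not pass limma, and the receptor genes Ccr1, Ccr7, Cxcr3 and Cxcr6 did not pass voom. Limma on log2(FPKM + 1), fitted over the 11083 genes that averaged 1 FPKM or more, called 8 of the 16 chemokine genes at a Benjamini-Hochberg adjusted p under 0.05, 6 higher and 2 lower. The background over all genes tested was 16.2% higher and 19.1% lower. The median log2 difference of the 16 was 0.52, against -0.04 over all genes tested. The voom fit on whole fragments covered 14353 genes and 29 chemokine genes, of which 14 were higher and 2 lower, against a background of 17.6% and 15.7%, and the median log2 difference was 1.17 against -0.01. Groups did not overlap in 20 of the 29, 18 higher and 2 lower in control mice, against 44.6% of all genes in that fit. Ccl4, Ccl7 and Xcr1 passed the minimum of 10 fragments only through the control mice, with 8.22, 7.78 and 8.56 fragments on average in the other 9 mice. Ccl4 and Ccl7 are among the 14 higher by voom. All of Ccl4, Ccl7 and Xcr1 are among the 18 and enter the median, so these values depend in part on the filter. Cxcl13, among the 2 lower by limma, passed the filter of 1 FPKM only through the ND-fed mice.

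Among the CCR2 ligands, Ccl2 was at 1.30, 0.277 and 0.636 FPKM in the ND-fed mice and at 3.84, 2.06 and 6.15 FPKM in the control mice. The groups did not overlap, and the lowest control mouse was above the highest ND-fed mouse. The means were 0.738 ± 0.519 and 4.02 ± 2.05 (SD, n = 3 each), a 5.44-fold difference in level, and the log2 difference of 1.49 ± 0.30 (SE) passed limma (adjusted p = 0.00316). The log2(FPKM + 1) scale understates changes of low genes, and voom gave 2.48 ± 0.60 for the same gene (adjusted p = 0.00707).

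Ccl7, the neighbouring gene, rested on few fragments, 3, 0 and 2 in the ND-fed mice against 12, 16 and 23 in the control mice, and rose by voom (log2 difference 3.06 ± 0.67, adjusted p = 0.00363). A fitted difference from so few fragments depends on the small count that voom adds, and Ccl7 passed the filter only through the control mice. Ccr2, the receptor of both ligands, was at 0.396, 0.233 and 0.189 FPKM in ND-fed mice and at 1.42, 0.990 and 1.71 FPKM in control mice, which again did not overlap. It rose 5.03-fold in mean level (voom log2 difference 2.34 ± 0.46, adjusted p = 0.00198). The fragments behind Ccr2 were 23 to 47 in ND-fed mice and 143 to 239 in control mice.

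CX3CR1 is the receptor for the membrane-anchored ligand CX3CL1, and both genes rose. Cx3cr1 was at 0.101, 0.196 and 0.0988 FPKM in the ND-fed mice and at 1.94, 0.800 and 2.22 FPKM in the control mice. The means of 0.132 ± 0.0553 and 1.65 ± 0.751 differed 12.5-fold (voom log2 difference 3.54 ± 0.67, adjusted p = 0.00156). Cx3cl1 was at 0.145, 0.256 and 0.255 FPKM in ND-fed mice and at 1.05, 0.619 and 1.01 FPKM in control mice, a 4.08-fold difference in mean level (voom log2 difference 2.0 ± 0.34, adjusted p = 0.000678). All control mice were above all ND-fed mice in both genes.

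Among the ligands of CCR1 and CCR3, Ccl6 was at 4.31, 2.77 and 3.97 FPKM in ND-fed mice and at 9.27, 6.65 and 9.60 FPKM in control mice, and rose 2.31-fold (limma log2 difference 1.02 ± 0.18, adjusted p = 0.00124). Its neighbour Ccl9, a macrophage-derived ligand of CCR1, was at 14.6 ± 1.02 and 15.6 ± 0.745 FPKM (SD, n = 3 each) and did not pass limma (adjusted p = 0.43). Ccl4 had 2, 0 and 1 fragments in ND-fed mice and 21, 11 and 29 in control mice, and rose by voom (log2 difference 3.66 ± 0.65, adjusted p = 0.000977), having passed the filter only through the control mice.

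Ccl5, a ligand made by T cells and macrophages, was at 2.37, 0.590 and 0.869 FPKM in ND-fed and at 3.78, 2.29 and 5.08 FPKM in control mice. The groups overlapped, since the highest ND-fed mouse was above the lowest control mouse, and the log2 difference of 1.08 ± 0.41 had an adjusted p of 0.064 (limma, 95% interval 0.17 to 2.0). Ccl24, an eosinophil-attracting CCR3 ligand, was at 0.952 ± 0.216 and 1.28 ± 0.229 FPKM (adjusted p = 0.151, limma). Ccr1 had 2, 2 and 1 fragments in ND-fed mice and 15, 11 and 36 in control mice, with an adjusted p of 0.0759 by voom.

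Of the CXCR3 ligands, which interferons induce, Cxcl10 was at 2.0, 0.615 and 1.56 FPKM in ND-fed mice and at 3.04, 3.33 and 3.90 FPKM in control mice. It rose 2.46-fold in mean level (limma log2 difference 0.93 ± 0.27, adjusted p = 0.0217). The call was lost without ND replicate 2, the lowest mouse (adjusted p = 0.0824), and without control replicate 3. It was also lost with no filter on low values and with a fold-change threshold, and was kept in 11 of 15 alternatives. Cxcl9 was at 6.05 ± 1.53 and 8.92 ± 0.294 FPKM and Cxcl11 at 1.12 ± 0.382 and 1.54 ± 0.0193 FPKM (SD, n = 3 each), and neither passed limma (adjusted p = 0.276 and 0.11). Their receptor Cxcr3 was at 0.437 ± 0.236 and 0.500 ± 0.155 FPKM (voom adjusted p = 0.625). Exons of Cxcl10 share 133 of 2252 bases with Art3 on the other strand, and those of Cxcl11 share 1582 of 3794 bases with the pseudogene Gm2673, so reads there cannot be told apart without strand. The table lists Cxcl11 as a polymorphic pseudogene, so its value is the RNA of that locus and does not stand for a functional ligand.

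Cxcl16, a membrane-anchored ligand and scavenger receptor, was at 4.30, 3.54 and 3.57 FPKM in ND-fed mice and at 6.40, 5.25 and 6.01 FPKM in control mice, and rose 1.55-fold (limma log2 difference 0.52 ± 0.09, adjusted p = 0.00176). Its exons share 552 of 3021 bases with Zmynd15 on the other strand. Its receptor gene Cxcr6 was at 0.653 ± 0.150 and 0.446 ± 0.314 FPKM, with a voom log2 difference of -0.74 (95% interval -1.75 to 0.27), and did not pass. Cxcl14, a ligand made by epithelial and stromal cells, was at 0.530, 0.448 and 1.04 FPKM in ND-fed mice and at 2.44, 1.64 and 2.43 FPKM in control mice. It rose 3.24-fold (limma log2 difference 0.93 ± 0.15, adjusted p = 0.000759).

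Of the neutrophil-attracting ligands, Cxcl1 was at 2.0, 0.705 and 1.37 FPKM in ND-fed and at 2.01, 1.90 and 3.40 FPKM in control mice, which overlapped (limma adjusted p = 0.0689). Cxcl2 had 2, 0 and 3 fragments in ND-fed mice and 10, 6 and 20 in control mice, and rose by voom (log2 difference 2.46 ± 0.68, adjusted p = 0.0146), a call that was lost without ND replicate 2. Their receptor genes Cxcr1 and Cxcr2 averaged 1.58 and 5.50 fragments per mouse and were not tested. Ccl22, a macrophage and dendritic cell ligand of CCR4, was at 0.147, 0.135 and 0.0957 FPKM in ND-fed mice and at 0.420, 0.604 and 0.830 FPKM in control mice, and rose 4.91-fold (voom log2 difference 2.15 ± 0.52, adjusted p = 0.00677).

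Both genes that fell are classed as homeostatic ligands. Cxcl12, the most abundant chemokine gene per unit of length, was at 47.7, 39.9 and 46.8 FPKM in ND-fed mice and at 33.1, 35.9 and 33.0 FPKM in control mice. It fell by 0.38 on the log2 scale (limma, SE 0.07, adjusted p = 0.00214), with no overlap between groups. Cxcl13 was at 8.41, 4.49 and 5.76 FPKM in ND-fed mice and at 0, 0.977 and 0.420 FPKM in control mice, 0.0748 times the ND level. It fell by 2.32 on the log2 scale (SE 0.34, adjusted p = 0.000454), and by voom by 4.89 ± 1.14. Cxcl13 passed the filter of 1 FPKM only through the ND-fed mice. Cxcr5, the receptor of CXCL13, averaged 6.17 fragments per mouse and was not tested, and Cxcr4, the receptor of CXCL12, was at 0.341 ± 0.266 and 0.907 ± 0.185 FPKM and was higher by voom (log2 difference 1.80 ± 0.59, adjusted p = 0.0326). The Cxcr4 call was lost without ND replicate 1 or 3 and without control replicate 1 or 3.

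The remaining genes of the 29 tested by voom were Ccl27a, Ccl25, Ccr7 and Xcr1. Ccl27a, the CCR10 ligand of skin-homing T cells, was at 3.08 ± 0.227 FPKM in ND-fed and at 2.95 ± 0.645 FPKM in control mice. Ccl25, the CCR9 ligand of gut-homing T cells, was at 1.23 ± 0.256 and 0.907 ± 0.108 FPKM (SD, n = 3 each), and neither passed limma (adjusted p = 0.735 and 0.0869). Ccr7, the lymph node homing receptor, and Xcr1, which marks cross-presenting dendritic cells, did not pass voom (adjusted p = 0.437 and 0.126). Ccl27a has near-identical copies in the table, so the division of reads among the copies is uncertain.

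**Figure D2:**
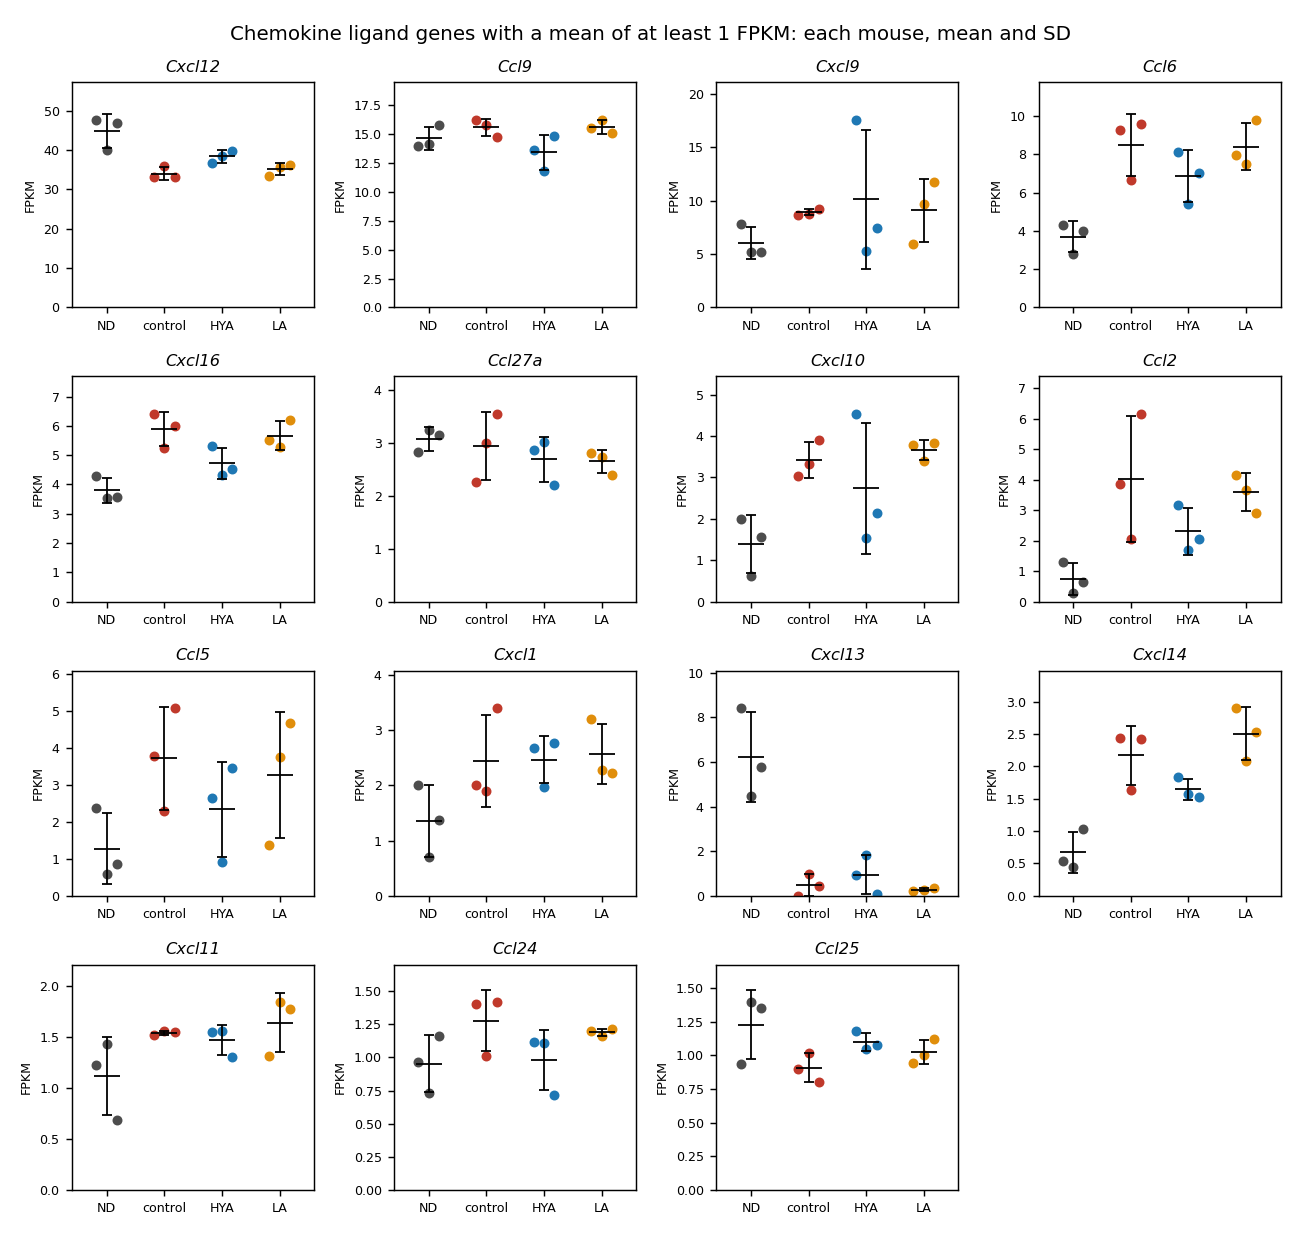
FPKM of 15 chemokine genes that averaged 1 FPKM or more, with 1 panel per gene and linear axes. Points are single mice of the ND, control, HYA and LA groups, and bars show the mean and SD of 3 mice. Ccl6, Ccl2 and Cxcl14 lie higher in all control mice than in all ND-fed mice, and Cxcl13 falls from 4.49 FPKM or more in ND-fed mice to under 1 FPKM in control mice.

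Scaling moved some of these calls. Of 9 hepatocyte markers, 7 fell in control mice, against 19.1% of all genes tested. Their summed level was 42907 to 44867 FPKM in ND-fed and 28588 to 32435 FPKM in control mice. Rescaling each mouse to TPM moved the median log2 difference of all genes tested from -0.04 to 0.17. Under TPM 12 of the 16 chemokine genes were called, 11 higher and 1 lower, against 6 higher and 2 lower on the deposited scale. Shares of all genes called under TPM are not given here, so the TPM counts were not read against a background. The Cxcl12 call was lost under TPM (adjusted p = 0.118), while Cxcl13 stayed lower.

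Markers of monocytes and macrophages moved with the chemokine genes. Of the 11 markers examined, 8 reached 1 FPKM, and 7 of those rose in control mice, with a median log2 difference of 1.03, against the 16.2% of all genes that were higher. Their summed level was 79.3 to 110.6 FPKM in ND-fed mice, 129 to 169 FPKM in control mice, 99.5 to 131 FPKM in HYA-treated mice and 134 to 148 FPKM in LA-treated mice, and no marker was at 0. In whole liver, fewer cells of a type and less RNA per cell cannot be told apart, and the part of cell numbers in the chemokine differences was not tested. Of 7 Kupffer cell markers, 1 rose and 3 fell, against 16.2% and 19.1% of all genes tested. The 1 B cell marker of 7 that reached 1 FPKM was higher in control mice, while Cxcl13 was lower, and the summed B cell markers were 9.996 to 18.1 FPKM in ND-fed and 21.4 to 27.5 FPKM in control mice. The 10 T cell markers summed to 2.3 to 4.3 FPKM in ND-fed and 1.9 to 3.3 FPKM in control mice.

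HYA-treated mice were compared with control mice for the effect of HYA on the high-fat diet. Cx3cl1 was the gene that passed a test, and it was lower with HYA. It was at 0.354, 0.281 and 0.237 FPKM in HYA-treated mice, against 1.05, 0.619 and 1.01 FPKM in control mice and 0.764, 0.597 and 0.673 FPKM in LA-treated mice. All HYA-treated mice were below all control and LA-treated mice, on 20 to 27 fragments against 52 to 89 and 50 to 64. The mean of 0.291 ± 0.0594 FPKM (SD, n = 3) was 0.325 times that of control mice. Cx3cl1 fell by 1.60 on the log2 scale (voom, SE 0.29, adjusted p = 0.0165). The call was lost without control replicate 1, HYA replicate 2 or HYA replicate 3, with adjusted p-values up to 0.0889, and the sign was kept in all 9 alternatives to this fit. Cx3cl1 had a mean below 1 FPKM and was not tested in the limma fit.

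Limma called 0 of the 16 chemokine genes between HYA-treated and control mice, against a background of 1.57% of genes higher and 1.23% lower. Of the 16, 3 had an unadjusted p under 0.05, beside 18.5% of all genes tested, and the lowest adjusted p was 0.157. Voom called 1 of 29, lower, against a background of 1.72% higher and 1.84% lower, with 9 of 29 at an unadjusted p under 0.05 beside 19.4% of all genes. A count of 1 in 29 is near that background. Groups did not overlap in 5 of the 29, against 21.6% of all genes, with Cxcl12 and Ccl25 higher and Cx3cl1, Ccl22 and Ccl7 lower with HYA. The median log2 difference was -0.20 in the 16 and -0.42 in the 29, against 0.02 and 0.00 over all genes tested, and 11 of the 16 and 22 of the 29 had a negative difference. Ccl4, Ccl7 and Xcr1, which passed the voom filter only through the control mice, are among the 22, and Ccl7 is among the 5.

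Ccl22 lies next to Cx3cl1 on chromosome 8, and the cluster of Ccl22, Cx3cl1 and Ccl17 spans 66 kb (chr8:94745590-94812036, GRCm38). Ccl22 was at 0.222, 0.0474 and 0.278 FPKM in HYA-treated mice and at 0.420, 0.604 and 0.830 FPKM in control mice, which did not overlap, on 2 to 16 fragments against 21 to 40. Its log2 difference of -1.86 ± 0.48 had an adjusted p of 0.0513 by voom. Ccl17, a further CCR4 ligand, averaged 1.58 fragments per mouse and was not tested.

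On the CCR2 axis, Ccl2 was at 3.17, 1.70 and 2.06 FPKM in HYA-treated mice, 0.575 times the control mean. The groups overlapped, and the log2 difference of -0.54 had a 95% interval of -1.20 to 0.12 (limma adjusted p = 0.372). Ccl7 had 10, 2 and 9 fragments in HYA-treated mice, all below the 12, 16 and 23 of control mice, and an adjusted p of 0.197 by voom. Ccr2 was at 1.33, 0.473 and 1.05 FPKM (voom adjusted p = 0.318). Cx3cr1 was at 1.13, 0.612 and 0.853 FPKM, 0.524 times the control mean (voom adjusted p = 0.216), and without control replicate 2, the lowest control mouse, it was called lower (adjusted p = 0.00395).

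Among the ligands of CCR1 and CCR3, Ccl4 had 11, 4 and 10 fragments in HYA-treated mice and an adjusted p of 0.216 by voom. Ccl6 was at 6.85 ± 1.36 FPKM and Ccl9 at 13.4 ± 1.52 FPKM (SD, n = 3 each), with limma adjusted p-values of 0.445 and 0.196 against control mice. Among the CXCR3 ligands, Cxcl10 was at 4.53, 1.54 and 2.14 FPKM and Cxcl9 at 17.6, 5.32 and 7.47 FPKM. In both genes HYA replicate 1 was the highest of all 12 mice, while HYA replicates 2 and 3 were below every control mouse. Cxcl16 was at 4.72 ± 0.519 FPKM and had the lowest adjusted p of the 16 genes in this comparison.

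The ligands that were lower on the high-fat diet were not called between HYA-treated and control mice. Cxcl12 was at 36.7, 38.6 and 39.8 FPKM in HYA-treated mice, all above the control mice, with a log2 difference of 0.17 (95% interval 0.01 to 0.33, limma adjusted p = 0.239). Cxcl13 was at 0.942, 1.82 and 0.0704 FPKM, which overlapped with control mice and stayed below all ND-fed mice. Cxcl14 was at 1.64 ± 0.167 FPKM and Cxcl1 at 2.47 ± 0.432 FPKM (limma adjusted p = 0.398 and 0.962).

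Monocyte and macrophage markers moved in the same comparison, with 3 of the 8 that reached 1 FPKM lower with HYA than in control mice, against 1.23% of all genes, and a median log2 difference of -0.53. They were Itgax, Gpnmb and Cd9, and the rest of the 8 were not called. Itgax averaged 2.08 ± 0.393 FPKM on the high-fat diet alone and 0.927 ± 0.212 FPKM with HYA (SD, n = 3 each). Their part in the Cx3cl1 difference was not tested. Of the other lists, 1 of 2 cholangiocyte markers was lower, and their summed level was 3.8 to 6.4 FPKM in the control group against 2.3 to 3.5 FPKM in the HYA group.

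**Figure D3:**
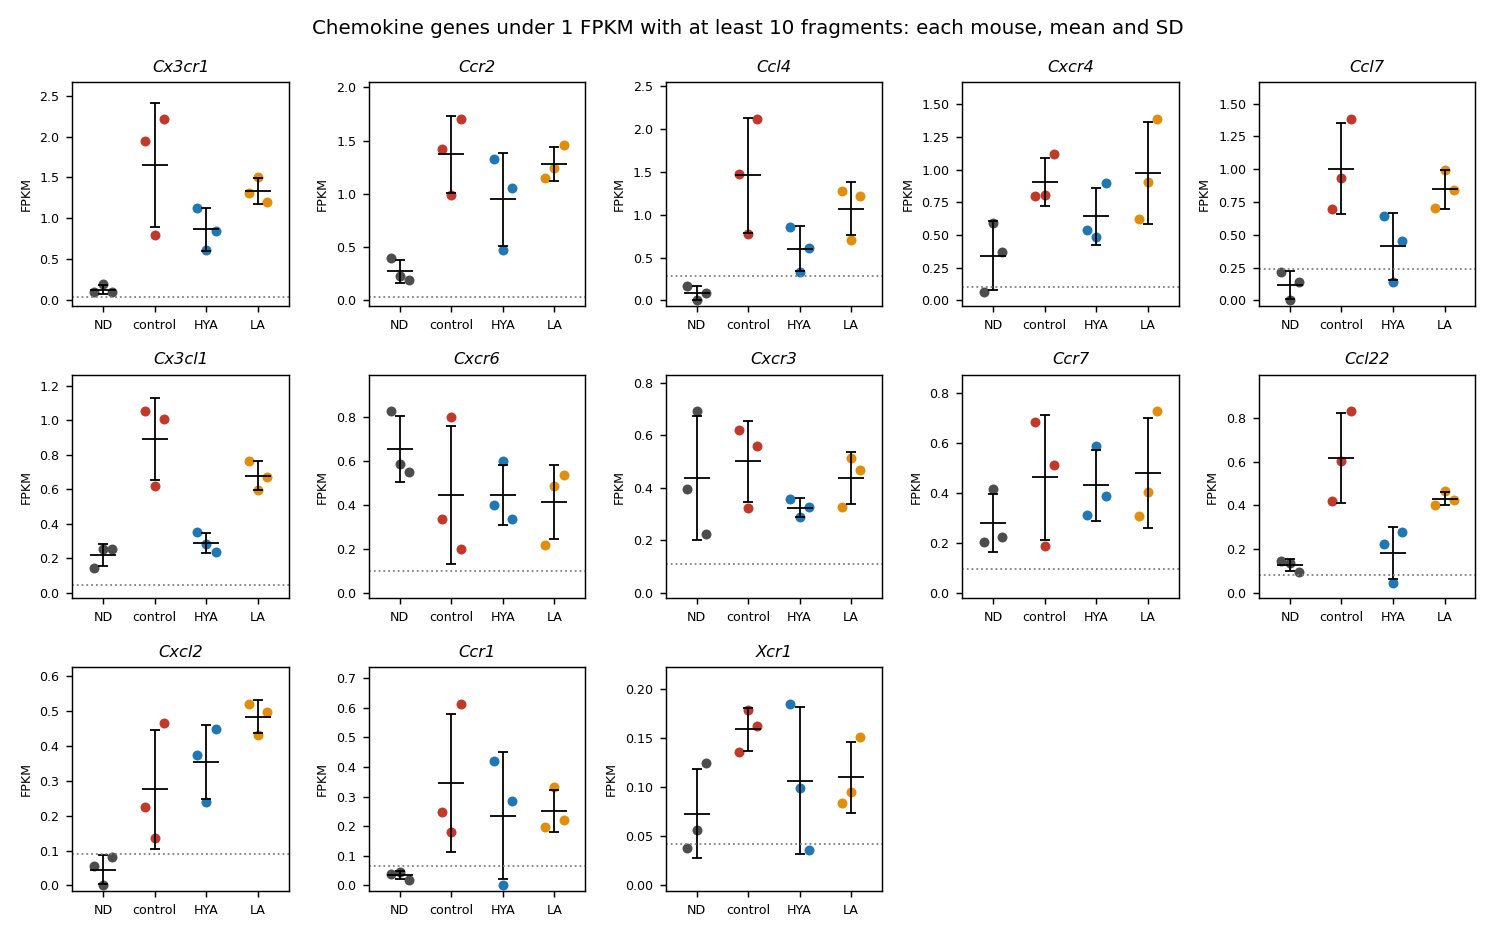
FPKM of the 13 chemokine genes with a mean under 1 FPKM and at least 10 fragments on average, with 1 panel per gene and linear axes. Points are single mice, bars show the mean and SD of 3 mice, and the dotted line is the highest level that 3 fragments correspond to in any mouse. Cx3cl1 lies at 0.237 to 0.354 FPKM in HYA-treated mice, below all control and LA-treated mice, and Ccl4, Ccl7, Cxcl2 and Ccr1 lie under the dotted line in all ND-fed mice.

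LA-treated mice were compared with control mice for the effect of the parent fatty acid. Neither limma nor voom called a chemokine gene, and 0 of 16 and 0 of 29 had an unadjusted p under 0.05. The background was 0% in both directions by limma and 0% by voom, and 294 of the 11083 genes had an unadjusted p under 0.05 by limma. The median log2 difference of the 16 genes was -0.01. Ccl2 was at 4.16, 3.67 and 2.92 FPKM in LA-treated mice, inside the range of control mice, with a log2 difference of -0.05 (limma 95% interval -0.72 to 0.61). Cx3cl1 was at 0.678 ± 0.0838 FPKM, with a log2 difference of -0.36 (voom 95% interval -0.86 to 0.14), and Ccl22 at 0.431 ± 0.0307 FPKM, with -0.46 (-1.26 to 0.35).

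HYA is hydrated LA, with a hydroxyl group in place of a double bond, and both were given at the same 1% for the same 26 weeks. They were compared directly as 1 pair, with p-values adjusted over all genes. Limma called 0 of 16 chemokine genes, against a background of 0.235% higher and 0.253% lower, with 3 of 16 at an unadjusted p under 0.05, a share near the 17.2% of all genes. Voom called 0 of 29, against 0.78% higher and 0.78% lower, with 6 of 29 at an unadjusted p under 0.05, near the 17.6% of all genes. Cx3cl1 was nearest, with a log2 difference of -1.23 (95% interval -1.89 to -0.58, adjusted p = 0.0588), and it was called under TPM scaling (adjusted p = 0.0426). TPM scaling also moved the median log2 difference of all genes tested by limma, from 0.014 to -0.095. For Ccl2 the difference was -0.48 (limma 95% interval -1.14 to 0.18), so that a larger or no difference is within the interval. Cxcl14 was at 1.83, 1.57 and 1.53 FPKM with HYA and at 2.90, 2.08 and 2.53 FPKM with LA, which did not overlap (limma adjusted p = 0.195). Groups did not overlap in 8 of the 29, near the 24.1% of all genes, with Cxcl12 higher and Cx3cl1, Cxcl14, Ccl22, Ccl7, Cx3cr1, Ccl9 and Ccl24 lower in HYA-treated mice. Of these, Ccl22, Ccl7 and Cx3cr1 had voom adjusted p-values of 0.159, 0.307 and 0.373, and Ccl7 passed the voom filter only with the LA-treated mice included.

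**Figure D4:**
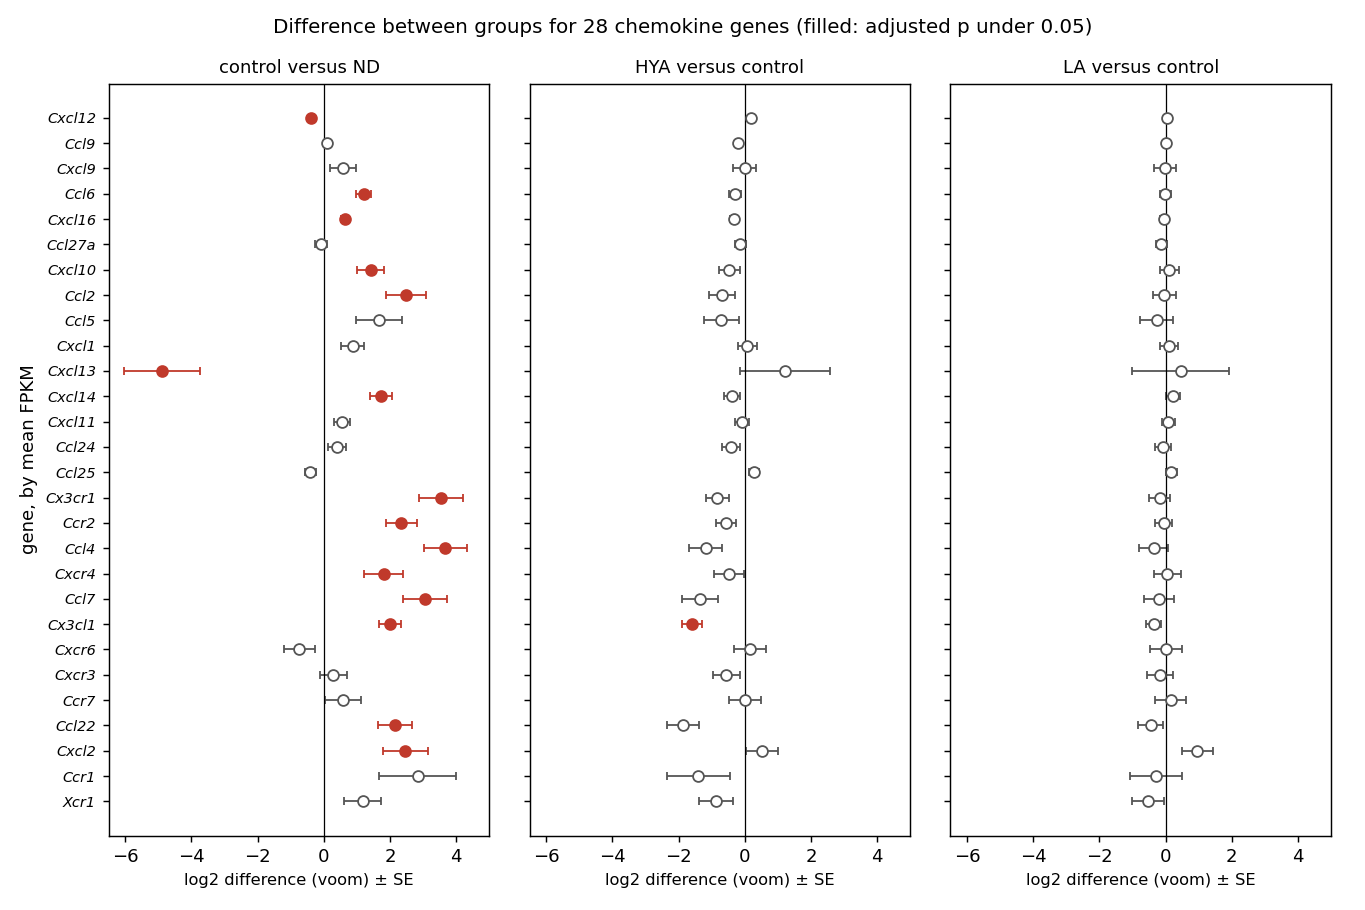
Log2 difference and its SE from voom on fragments for 28 chemokine genes with at least 10 fragments on average, ordered by mean FPKM, in control versus ND, HYA versus control and LA versus control. Filled points passed an adjusted p of 0.05, among them Ccl2 and Cx3cr1 in control versus ND and Cx3cl1 alone in HYA versus control, with none in LA versus control. The 3 comparisons share the control mice and are not independent.

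The HYA and LA groups were also set against ND-fed mice. These comparisons share the ND-fed mice with each other and with control versus ND, so each is given by its own values. In HYA-treated mice limma called 3 of 16 genes, 2 higher and 1 lower, against a background of 8.72% higher and 7.85% lower. Ccl6 was 1.86-fold higher (log2 difference 0.75 ± 0.18, adjusted p = 0.0153) and Cxcl14 2.45-fold higher (0.68 ± 0.15, adjusted p = 0.0106). Cxcl13 was 0.152 times the ND level (-1.97 ± 0.34, adjusted p = 0.00309). It passed the filter of 1 FPKM only through the ND-fed mice, with 0.559 FPKM on average in the other mice. The Ccl6 call was lost without ND replicate 2 or HYA replicate 1 and with a fold-change threshold. The Cxcl13 call was lost with a minimum of 0.1 FPKM and log2(FPKM + 0.1) (adjusted p = 0.0525) and in voom with a replicate block (adjusted p = 0.0523). Ccl2 was 3.13-fold higher than in ND-fed mice with no overlap and an adjusted p of 0.0538 by limma.

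Voom called 7 of 29 genes between HYA-treated and ND-fed mice, 6 higher and 1 lower, against a background of 7.78% higher and 6.62% lower. The added genes were Cx3cr1, Ccr2, Ccl4 and Cxcl2, with log2 differences of 2.71, 1.76, 2.48 and 2.98 and adjusted p-values of 0.0206, 0.0268, 0.0334 and 0.00988. The count ranged from 2 to 8 when single mice were left out, and was 2 without ND replicate 2, 3 without ND replicate 3, and 4 without ND replicate 1, HYA replicate 1 or HYA replicate 3. Cx3cl1 was at 0.219 ± 0.0639 FPKM in ND-fed and 0.291 ± 0.0594 FPKM in HYA-treated mice (voom log2 difference 0.40, 95% interval -0.44 to 1.25).

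In LA-treated mice limma called 9 of 16 genes against ND-fed mice, 7 higher and 2 lower, against a background of 14.4% higher and 16.6% lower. Voom called 17 of 29, 15 higher and 2 lower, against 15.5% and 13.9%. Ccl4, Ccl7 and Cxcl2 passed the minimum of 10 fragments only with the LA-treated mice included, since the other 9 mice averaged 9.89, 8.56 and 9.78 fragments. All of them are among the 15 higher. Ccl2 was 4.86-fold higher (limma log2 difference 1.43 ± 0.30, adjusted p = 0.00452), Cxcl14 3.73-fold higher (1.08 ± 0.15, adjusted p = 0.000362) and Cxcl10 2.64-fold higher (1.01 ± 0.27, adjusted p = 0.0162). Cxcl1 passed narrowly (0.62 ± 0.22, adjusted p = 0.0489), and the call was lost in 9 of 15 alternatives, among them without ND replicate 2 or 3 and without any 1 of the LA-treated mice. Cxcl12 fell by 0.34 and Cxcl13 by 2.48 on the log2 scale (adjusted p = 0.00499 and 0.000356), and the Cxcl12 call was lost under TPM (adjusted p = 0.243). As above, Cxcl13 entered the limma fit only through the ND-fed mice. Cxcl10 was lost without ND replicate 2 (adjusted p = 0.061).

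Mouse-to-mouse differences ran through many of the chemokine genes. Over the 29 genes with at least 10 fragments, HYA replicate 2 was the lowest HYA-treated mouse in 19, against 29.6% of all genes tested by limma. HYA replicate 1 was the highest in 17, against 33.3%. All such shares here are over the 11083 genes of the limma fit, which leaves out 13 of the 29. Control replicate 3 was the highest control mouse in 16 and control replicate 2 the lowest in 16, against 35.8% and 32.2% of all genes. ND replicate 1 was the highest ND-fed mouse in 15 and ND replicate 2 the lowest in 15, against 30.1% and 32.5%. LA replicate 3 was the highest LA-treated mouse in 15 and LA replicate 1 the lowest in 16, against 33.9% and 35.3%. These counts describe the mice, and genes within a mouse are not independent.

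By position (GRCm38), Ccl2 and Ccl7 lie in a cluster of 6 chemokine genes on chromosome 11 (chr11:82035571-82305690), and Ccl5, Ccl9, Ccl6, Ccl3 and Ccl4 lie in another on that chromosome (chr11:83525778-83664683). Cxcl9, Cxcl10 and Cxcl11 lie together on chromosome 5 (chr5:92321347-92365485), and Cxcl13 lies apart from them (chr5:95956951-95961068, plus strand).

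Other genes of chemokine function were taken as a list of 13, of which 7 reached 1 FPKM. In control mice 2 of the 7 rose and 0 fell, against 16.2% and 19.1% of all genes tested, and the median log2 difference was 0.39. Pf4, the platelet ligand CXCL4, was at 0.401 ± 0.272 FPKM in ND-fed and 2.10 ± 0.787 FPKM in control mice (limma adjusted p = 0.00503), and Ackr2, a receptor that scavenges CC chemokines, at 0.652 ± 0.067 and 1.26 ± 0.240 FPKM (adjusted p = 0.00831). Both were also called higher in HYA-treated and LA-treated mice than in ND-fed mice, and Cmklr1, the chemerin receptor, was called higher in LA-treated mice. None of the 7 was called between HYA-treated and control mice or between HYA-treated and LA-treated mice by limma.

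Genes of signalling downstream of chemokine receptors numbered 27, with 19 tested. Of these 10 rose and 0 fell in control mice against ND-fed mice, where 16.2% of all genes rose and 19.1% fell, with a median log2 difference of 0.30, and 0 were called between HYA-treated and control mice, with a median of -0.21. Of 18 genes for cytokines and factors that induce chemokines, 14 were tested, 5 rose and 0 fell in control mice beside the same background (median 0.19), and 0 were called with HYA (median -0.16), where 1.57% of all genes rose and 1.23% fell. Of the other cell type lists, sinusoidal endothelium and stellate cells had 4 of 8 markers higher in control mice each, cholangiocytes 1 of 2, and neutrophils and dendritic cells 0 of 2 and 0 of 1.

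Among the genes under 10 fragments, Cxcl5, Ccl3 and Ccl28 were the most abundant ligands, with means of 8.58, 7.75 and 6.58 fragments, and Cxcr5, Cxcr2 and Ccr9 the most abundant receptors, with 6.17, 5.50 and 3.92. Ccl17 and Ccl8 were above the floor in 1 of 12 mice each. Ccl12, Ccl20, Ccr4, Ccr8 and Ccr10 were at or under it in every mouse, so a level above that floor was not detected and a lower one is not shown to be absent. Cxcl15 was at 0 in every mouse, and the other 5 genes at 0 were copies of Ccl19, Ccl21b, Ccl21c and Ccl27a on unplaced scaffolds, whose reads could not be told apart from those of near-identical copies.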

How the data were processed

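Liver RNA from 12 mice, 3 in each of 4 diet groups, was sequenced by the authors as paired ends on the Illumina HiSeq platform. The processing notes of the submitters name fastp, HISAT2 (version 2.0.5), featureCounts (version 1.5.0-p3) and build GRCm38. The annotation release, the strand setting and the library scaling are not given in the sources used here, and the library kit per the labels does not mark strand. The deposited table holds FPKM per gene and mouse, and its columns sum to differing totals, although the methods name TPM. All 63 chemokine genes had the coordinates of GENCODE M21.

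All columns of values were mapped to a mouse by name. Fragments were recovered from the steps of each column after multiplication by gene length, and 100% of the values came out whole. Limma (version 3.58.1, R 4.3.3; two-sided, with a mean-variance trend) was fitted to log2(FPKM + 1) of the 11083 genes that averaged 1 FPKM or more, with all 12 mice in 1 fit for 6 comparisons, and p-values were adjusted over all genes by the Benjamini-Hochberg method. Voom with limma on genes with at least 10 fragments on average was an alternative. A call is an adjusted p under 0.05.

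The genes and lists were chosen with earlier results of these data known. Chemokine genes that averaged 1 FPKM or more are named with their values, save a gene that enters the counts and is not reported here, genes with a lower mean and at least 10 fragments are named in groups or singly where voom called them, and the rest are given by counts and the floor of 3 fragments. Markers of 11 cell types and 3 lists of related genes were summarised. Both fits were tested on simulated data. Same-numbered mice were compared across groups: 3 of 18 pairs had a correlation of deviations above 0.1 (range -0.396 to 0.294), so the numbers were not taken to pair the mice.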

Additional observations from a re-analysis of the deposited data

How the results depend on the processing

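The counts of chemokine genes called by limma were 8, 0, 0, 0, 3 and 9 for control versus ND, HYA versus control, LA versus control, HYA versus LA, HYA versus ND and LA versus ND. Shares of all genes called are given here for the main limma and voom fits only. Counts under the other settings show how the calls move and were not read against a background. With no filter on low values they became 15, 1 and 15 for control versus ND, HYA versus control and LA versus ND. With a mean of at least 0.1 FPKM and log2(FPKM + 0.1) they were 19, 1, 7 and 18 for control versus ND, HYA versus control, HYA versus ND and LA versus ND, and with voom on fragments 16, 1, 7 and 17, both of which test more genes. A fold-change threshold left 3, 1 and 5 for control versus ND, HYA versus ND and LA versus ND. Leaving out single mice gave 7 to 11, 2 to 5 and 8 to 10 for the comparisons of control, HYA and LA with ND-fed mice, and 0 for the other 3, and the 5 came without ND replicate 1. A replicate block gave 9, 5 and 9 for the comparisons with ND-fed mice, and the cause was not tested.

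For the voom counts of 16, 1, 0, 0, 7 and 17, alternatives chosen after seeing the data were TPM scaling, median-ratio size factors, a replicate block and leaving out single mice. TPM scaling gave 3 for HYA versus control (Cx3cl1, Ccl22 and Ccl9, all lower) and 1 for HYA versus LA (Cx3cl1). The replicate block also gave 1 for HYA versus LA (Cx3cl1, adjusted p = 0.0421). In the limma fit, TPM moved the median log2 difference of all genes downward, from 0.019 to -0.095 for HYA versus control. For HYA versus LA it moved from 0.014 to -0.095. Shares of all genes called under these voom alternatives are not given here. Leaving out single mice gave 15 to 17 for control versus ND, 0 to 2 for HYA versus control, 2 to 8 for HYA versus ND and 14 to 17 for LA versus ND. The 0 came without control replicate 1, HYA replicate 2 or HYA replicate 3, and the 2 without control replicate 2. With the block, 19 were called for control versus ND. No result reversed its direction among those called. For the limma fit and its 15 alternatives, 1385 single-gene results stayed on the same side of the threshold, 27 became called and 28 lost the call. These 3 counts do not cover the voom calls. Of those, Ccr2 in HYA versus ND was kept in 4 of 9 alternatives and Ccl22 in LA versus ND in 3 of 9. Depth limits the 34 genes below 10 fragments, and 3 mice a group limit all comparisons.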
